A study of Mus musculus with 12 samples.

Results

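The genes described here are 28 mouse genes of cholesterol synthesis, its control by the transcription factor SREBP2, and the uptake and trafficking of cholesterol, of 41388 genes in the deposited tables. They were chosen by gene name from the pathway, with earlier results of these data known, and every one was matched by its Ensembl gene ID. All 28 passed the filter on low counts that left 12914 genes for testing. RNA was measured in thioglycolate-elicited mouse peritoneal macrophages, collected on day 4 after the injection of this irritant broth, plated and treated from the next day for 8 h. The groups were LysM-Cre controls in vehicle (BSA-PBS), LysM-PPARg cells labelled PPARg KO in vehicle, and each genotype in 250 uM palmitate, a saturated fatty acid, plus LPS, a bacterial endotoxin, at 100 ng/ml. Each of the 4 groups had 3 libraries. The LysM promoter drives Cre recombinase in macrophages and also in neutrophils, and every library carries that driver. The sources used here give neither the Pparg allele nor the age or sex of the mice, and do not say whether libraries came from separate animals or cultures, so p-values measure the spread between these libraries only.

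Cells make cholesterol from acetyl-CoA. The mevalonate arm of the pathway builds isoprenoid units and joins them to farnesyl diphosphate, which also feeds protein prenylation, and the sterol arm turns farnesyl diphosphate through squalene and lanosterol into cholesterol. When membrane sterol falls, the escort protein SCAP carries SREBP2 to the Golgi for cleavage, and the released factor activates most genes of both arms, whereas INSIG proteins retain the complex while sterol is plentiful. Macrophages also take up cholesterol with lipoproteins and dying cells, move it out of lysosomes and store it as esters.

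The libraries held 17960457 to 22696385 counts each. Vehicle replicate 1 labelled knockout stood apart, with a chi-square per degree of freedom over gene counts of 42.7 and 48.8 against the other libraries of its group, where all other pairs within a group lay between 2.45 and 12.9. Values that rest on it are therefore also given without it. In vehicle, Pparg went against its label. Its normalised level was 62.3, 61.6 and 61 CPM in the control vehicle libraries and 111, 91 and 95.9 CPM in those labelled knockout, and these groups did not overlap (log2 difference 0.69 ± 0.11, edgeR adjusted p = 0.00124). After stimulation Pparg was low in both genotypes. It was at 3.63, 2.86 and 4.14 CPM in controls and at 3.59, 5.04 and 4.73 CPM in libraries labelled knockout. These groups overlapped, and the difference was not called (edgeR adjusted p = 0.177). Gene counts include exons outside a deleted part and do not check the deletion, so the groups are called libraries labelled knockout throughout. Macrophage markers were present, with Cd68 at a mean of 4167 to 5868 CPM across groups, but not all were alike between genotypes. After stimulation 3 of 8 were higher in libraries labelled knockout and 2 lower (edgeR adjusted p under 0.05), beside 10% and 6.1% of all tested genes. Fcgr1 was at means of 38.7 CPM in stimulated controls and 90.3 CPM in libraries labelled knockout, and Cd14 at 2090 and 1493 CPM. The sums of the 8 overlapped, at 7036 to 7956 and 7520 to 7801 CPM. In vehicle 1 marker was higher and 1 lower. T and NK cell, B cell, eosinophil and mast cell, and erythroid marker sums stayed under 10 CPM in every library.

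In control vehicle libraries the members spanned a wide range of levels, given here as TMM-normalised CPM per kilobase of exon (TMM is a scaling that assumes most genes do not change). Npc2, a lysosomal protein that binds cholesterol, stood highest at 703, with its libraries between 667 and 765. Soat1, the enzyme that esterifies cholesterol for storage, followed at 130, Sc5d, a desaturase late in the sterol arm, at 103 and Fdps, which makes farnesyl diphosphate, at 71. These neighbours did not overlap in their libraries. Further down, Msmo1 (46) overlapped Hmgcs1 (44.7), Ebp (39.2) overlapped Insig1 (36.6), and Dhcr7 (27.7) overlapped Pmvk (27.3). The lowest were Scap at 2.01 and Idi1 at 0.881, and Idi1, the isomerase of the isoprenoid units, had the least precise fold changes in the set. Both levels and changes of Fdft1 and Tm7sf2 are uncertain. Fdft1 shares 767 exon bases, 26.8% of its length, with the opposite-strand gene Ctsb, which had 411920 to 1015643 counts per library against 907 to 1454 for Fdft1, and Tm7sf2 shares 532 exon bases (15.3%) with Vps51 on the same strand. How the counting treated strand and shared bases is not given in the sources used here. The close copies Acat3 (0 to 3 counts) and Idi2 (0 counts) took few reads.

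**Figure D1:**
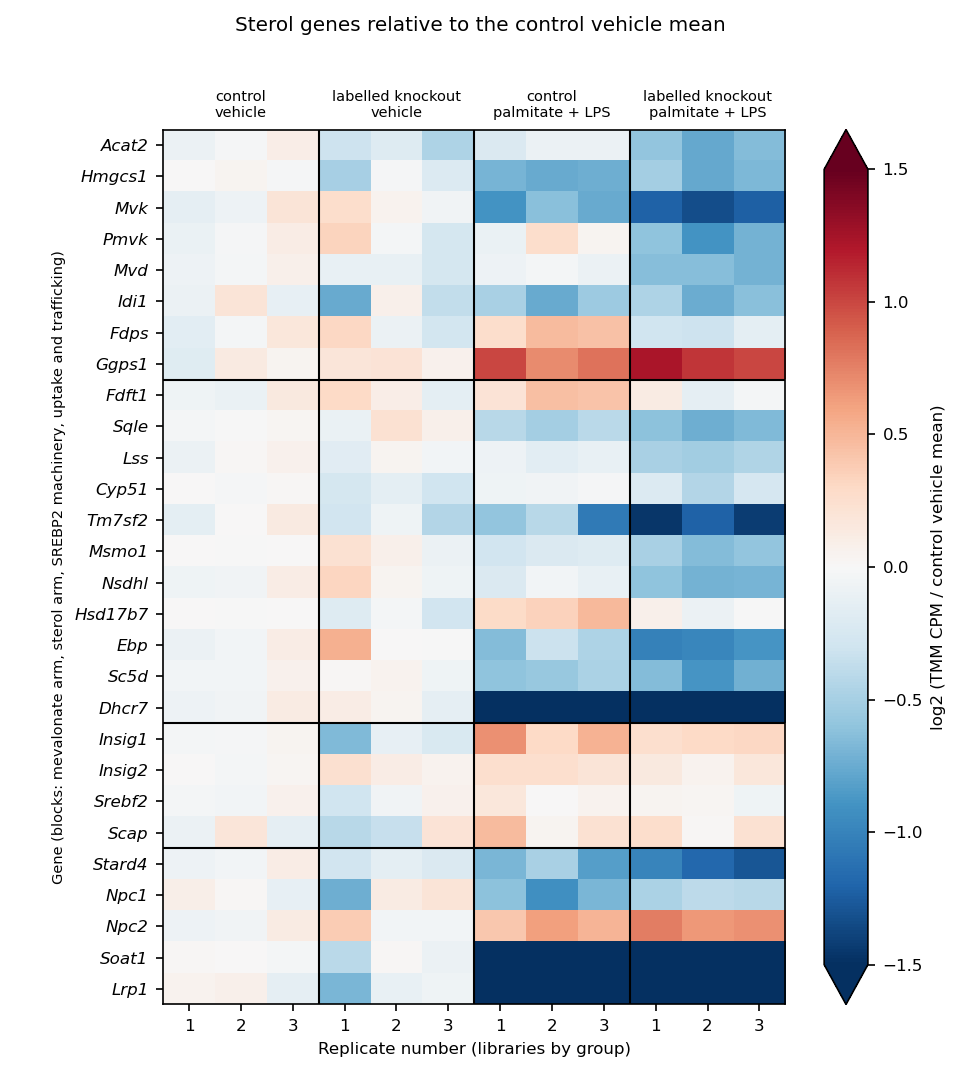
Level of each of the 28 genes in each of the 12 libraries, as the log2 ratio of its normalised CPM to the mean of the control vehicle libraries (colours stop at 1.5 in each direction). Black lines part the mevalonate arm, the sterol arm, the SREBP2 machinery, and uptake and trafficking. In the stimulated libraries labelled knockout most rows of the upper blocks are blue, while Ggps1 and Npc2 are red in both stimulated groups.

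Promoter sequence is shown because members of both arms moved together in the comparison of genotypes below. Promoter windows ran from 250 bases before to 50 after each RefSeq start site (GRCm38.p6), which can differ from the gene starts given below. They were matched by symbol for 23 of the 28 genes, which had 29 windows. Each was searched on both strands for the core of the sterol regulatory element bound by SREBP2 (TCACNCCAC), the box bound by its partner NF-Y (CCAAT) and the box bound by its partner Sp1 (GGGCGG), and no 2 kinds of match overlapped. In this window the sterol core was found in 1 of 23 members, Hmgcs1, against 1.33% of the 9702 tested genes with a window. Hmgcs1 was not called in the comparison of stimulated genotypes below (log2 difference 0.08 ± 0.11). Of the members called lower there, the 12 with a window had no exact match to the sterol core. The CCAAT box was found in 20 of 23 members (87%) against 42.8% of tested genes, and GGGCGG in 21 (91.3%) against 67.6%. CCAAT was present in 11 of the 12 members with a window that were lower in stimulated libraries labelled knockout and in 9 of the other 11. In all these counts a gene had a match if any of its windows had one. Pmvk had CCAAT only in its upstream window (chr3:89454291-89454590). Its other window (chr3:89459321-89459620) had no match of any kind. A match describes letters and is not a bound site. Nor does a missing match show that a site is absent, since other sequences and bases outside the windows were not searched. The 4 windows below run 5′ to 3′ on the strand of the gene, with the sterol core and CCAAT boxes in capitals (ATTGG is CCAAT on the other strand). They are Hmgcs1 (chr13:119690101-119690400, plus strand), the one with a sterol core, Mvk (chr5:114444019-114444318, plus strand) and Nsdhl (chrX:72918271-72918570, plus strand), with 5 and 4 CCAAT boxes, and Mvd (chr8:122443373-122443672, minus strand), with 2.
Hmgcs1: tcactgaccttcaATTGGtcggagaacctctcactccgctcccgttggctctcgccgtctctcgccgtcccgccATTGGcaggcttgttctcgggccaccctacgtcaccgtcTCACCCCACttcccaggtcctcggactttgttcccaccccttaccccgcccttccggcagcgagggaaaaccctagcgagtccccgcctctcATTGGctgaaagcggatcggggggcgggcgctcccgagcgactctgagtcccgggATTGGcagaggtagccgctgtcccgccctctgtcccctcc
Mvk: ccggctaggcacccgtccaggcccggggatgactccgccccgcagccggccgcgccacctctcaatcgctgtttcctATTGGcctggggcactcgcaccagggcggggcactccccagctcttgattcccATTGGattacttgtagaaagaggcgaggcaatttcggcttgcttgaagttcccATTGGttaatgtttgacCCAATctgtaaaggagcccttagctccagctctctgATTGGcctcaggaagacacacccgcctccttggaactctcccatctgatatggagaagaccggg
Mvd: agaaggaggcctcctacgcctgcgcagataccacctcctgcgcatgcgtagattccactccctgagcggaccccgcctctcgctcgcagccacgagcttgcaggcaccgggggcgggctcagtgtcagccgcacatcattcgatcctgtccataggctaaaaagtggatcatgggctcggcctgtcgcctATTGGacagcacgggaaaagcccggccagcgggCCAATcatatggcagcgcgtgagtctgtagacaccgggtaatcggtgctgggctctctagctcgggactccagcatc
Nsdhl: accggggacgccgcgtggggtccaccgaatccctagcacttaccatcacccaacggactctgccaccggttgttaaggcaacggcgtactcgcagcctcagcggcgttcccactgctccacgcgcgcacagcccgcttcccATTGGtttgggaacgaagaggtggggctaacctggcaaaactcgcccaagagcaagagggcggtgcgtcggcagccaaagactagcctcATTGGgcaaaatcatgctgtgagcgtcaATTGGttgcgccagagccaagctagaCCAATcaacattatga

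The first comparison asks how control macrophages responded to palmitate plus LPS. Dhcr7, Soat1 and Lrp1 fell most, Hmgcs1, Mvk and Sc5d fell less, and Ggps1, Insig1 and Npc2 rose. Dhcr7, the reductase of the last step of one route to cholesterol, fell 5.49-fold. Of the 28 genes, 7 rose, 13 fell and 8 were not called (edgeR quasi-likelihood test, adjusted p under 0.05), so 71.4% were called. Among all tested genes 32% rose and 34.7% fell, 66.7% in all, and the members' share is close to that background. Their median log2 change was -0.13, against -0.05 over all tested genes.

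Within the mevalonate arm, Ggps1, which makes the geranylgeranyl diphosphate used to prenylate small GTPases, was at 11.3, 14 and 13.2 CPM in control vehicle libraries and at 25.6, 21 and 22.5 CPM after stimulation. It rose by 0.85 ± 0.11 on the log2 scale (edgeR adjusted p = 4.51e-06), with no overlap between the groups. Hmgcs1, the synthase that commits acetyl-CoA units to the pathway, stood at 144, 148 and 142 CPM and then at 89.1, 85.5 and 87 CPM. All 3 stimulated libraries lay below every vehicle library, a log2 change of -0.73 ± 0.11. Mvk, the first mevalonate kinase, fell from 35.6 ± 4.36 to 21.1 ± 1.94 CPM (mean ± SD, n = 3) and Idi1 from 3.09 ± 0.378 to 2.06 ± 0.197 CPM. Fdps rose by 0.39 ± 0.13, while Acat2, which joins acetyl-CoA units, Pmvk, the next kinase, and Mvd, the decarboxylase, had log2 changes of -0.13, 0.08 and -0.06 that did not pass the threshold.

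In the sterol arm 2 of 11 genes rose and 6 fell. Dhcr7 stood at 99.5, 101 and 114 CPM in control vehicle libraries and at 21.2, 19 and 16.9 CPM after palmitate plus LPS, with no overlap (log2 change -2.46 ± 0.1, edgeR adjusted p = 5.62e-12). The other genes that fell were Sqle, the squalene epoxidase, Sc5d, Tm7sf2, a sterol reductase, Ebp, a sterol isomerase, and Msmo1, which starts the removal of methyl groups, with log2 changes from -0.66 (Tm7sf2) to -0.23 (Msmo1). Fdft1, the squalene synthase, and Hsd17b7, a ketoreductase of the demethylation steps, each rose by 0.37. Ctsb, which overlaps Fdft1, changed by -0.75. Lss, the cyclase that makes lanosterol, Cyp51, the lanosterol demethylase, and Nsdhl, a dehydrogenase of the demethylation steps, had changes between -0.13 and -0.05 that were not called.

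Among the regulators, Insig1 was at 96.9, 97.7 and 102 CPM in vehicle and at 159, 122 and 142 CPM after stimulation, without overlap (log2 change 0.51 ± 0.12, edgeR adjusted p = 0.00133). Insig2 rose by 0.23 ± 0.08. Srebf2, which encodes SREBP2, and Scap changed by 0.08 ± 0.09 and 0.26 ± 0.16 and were not called. In uptake and trafficking, Soat1 went from 1289, 1281 and 1243 CPM to 297, 266 and 283 CPM, with every stimulated library far below every vehicle library (log2 change -2.17 ± 0.1, edgeR adjusted p = 1.22e-11). Lrp1, a large endocytic receptor of remnant lipoproteins and other ligands, went from 437, 442 and 382 CPM to 138, 139 and 141 CPM, again without overlap (log2 change -1.59 ± 0.13). Npc1, the lysosomal membrane protein that exports cholesterol, and Stard4, a cytosolic sterol carrier, fell by 0.74 and 0.66 on the log2 scale. Npc2, the partner of Npc1, rose from 2291 ± 176 to 3275 ± 245 CPM.

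The split between higher and lower calls in controls depended on scaling. Scaled by library totals, the median of all genes moved by -0.33 on the log2 scale, and 2 members were higher (Ggps1 and Npc2) and 18 lower, in place of 7 and 13, beside 20.5% of all tested genes higher and 49.7% lower. Fdps, Fdft1, Hsd17b7 and Insig1 then had log2 changes of 0.06, 0.04, 0.04 and 0.18 that did not pass the threshold, and Insig2 one of -0.1. The calls of Fdps, Fdft1, Insig2, Msmo1 and Idi1 were also lost when 1 control library was left out: Fdps without vehicle replicate 1 (edgeR adjusted p = 0.0622), Fdft1 and Insig2 without vehicle replicate 2 (0.0501 and 0.0542), Msmo1 without stimulated replicate 1 (0.0727), and Idi1 without replicate 2 of either treatment (0.0851 and 0.0696).

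**Figure D2:**
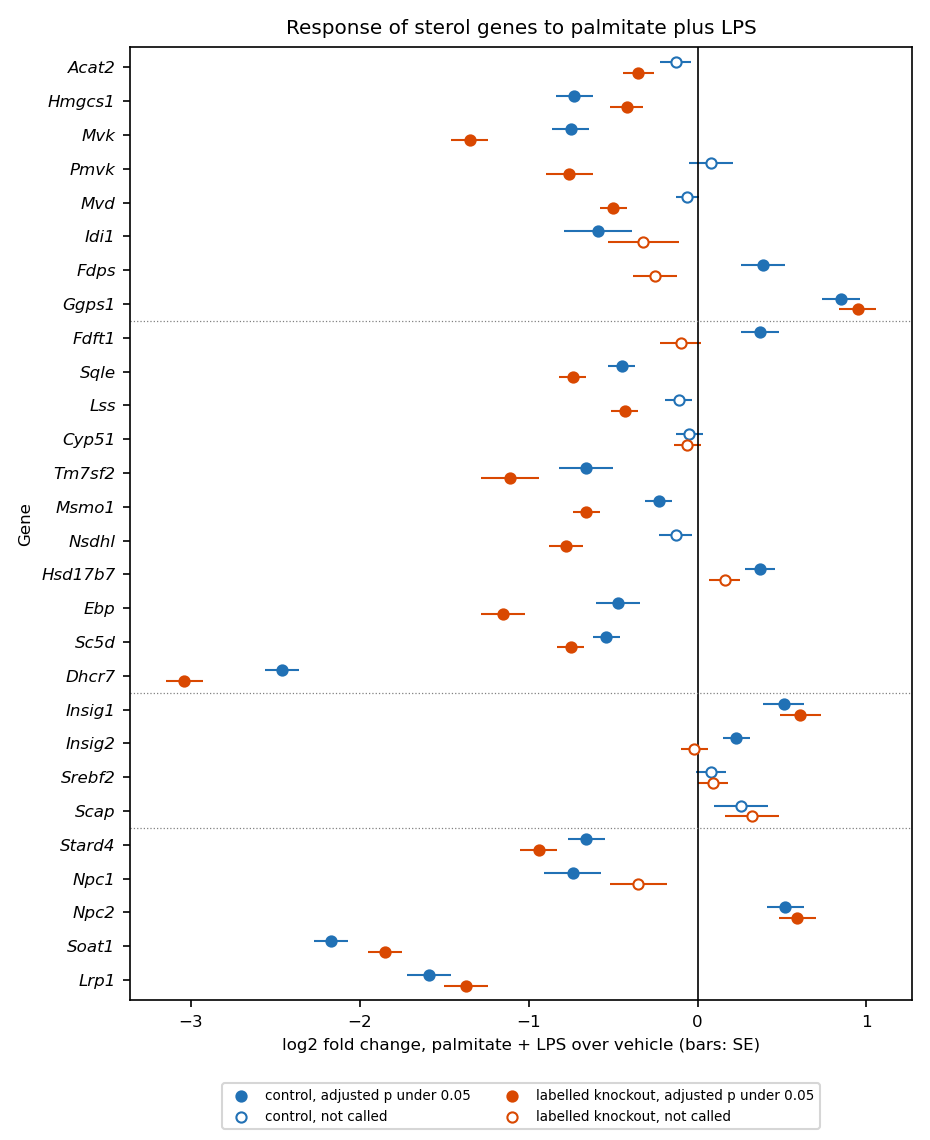
Log2 change from vehicle to palmitate plus LPS for each gene in controls (blue) and in libraries labelled knockout (orange), with standard errors as bars and filled points for an edgeR adjusted p under 0.05. Dhcr7 and Soat1 lie farthest to the left in both genotypes, and for most enzymes of the sterol arm the orange point lies left of the blue one.

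Next, the genotypes were compared within the stimulated libraries. Enzymes of both arms were lower in the libraries labelled knockout, by up to 1.75-fold for Pmvk, whereas the regulators and most trafficking genes were not called. Of the 28 genes 15 were lower, 0 higher and 13 not called (edgeR adjusted p under 0.05), a share of 53.6% lower. Over all tested genes 6.1% were lower and 10% higher, 16.1% in all. The members' median log2 difference was -0.3, against -0.01 over all tested genes. At an unadjusted p under 0.05, 17 were lower and 1 higher, with no share of all tested genes to set beside them. DESeq2 called 15 lower and 0 higher, also with no such share beside them. In 18 members the stimulated libraries labelled knockout all lay below the control ones and in 4 all lay above, against 19.8% and 22.4% of tested genes.

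In the mevalonate arm 5 of 8 genes were lower, with a median difference of -0.52. Pmvk (ENSMUSG00000027952, GRCm38 chromosome 3, 89459118 to 89469013, plus strand), which adds the second phosphate to mevalonate, stood at 38.6, 49.4 and 42.4 CPM in stimulated control libraries and at 27.1, 22.2 and 25.3 CPM in those labelled knockout. The groups did not overlap, and the log2 difference was -0.81 ± 0.14 (edgeR adjusted p = 0.000931). Mvd (ENSMUSG00000006517, chromosome 8, 122433596 to 122443422, minus strand) was at 99, 102 and 98.1 CPM against 66.8, 67 and 63.4 CPM. Each group kept to a narrow range, and the difference of -0.6 ± 0.08 had the smallest adjusted p of the set (7.08e-05). Fdps was at 106, 122 and 119 CPM against 71.4, 71 and 79.3 CPM, a difference of -0.65 ± 0.13. Acat2 (35.7, 38.9 and 39 CPM against 27.5, 24.4 and 26.3 CPM) and Mvk (19.2, 23.1 and 21 CPM against 15.4, 14.2 and 15.2 CPM) differed by -0.54 ± 0.09 and -0.5 ± 0.12, also without overlap. Hmgcs1, Idi1 and Ggps1 were the exceptions of this arm, with differences of 0.08 ± 0.11, -0.03 ± 0.22 and 0.26 ± 0.11 that were not called.

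In the sterol arm 9 of 11 genes were lower and all 11 had a difference below 0, with a median of -0.38. Dhcr7 (ENSMUSG00000058454, chromosome 7, 143823145 to 143848410, plus strand) had been reduced in both stimulated groups, to 21.2, 19 and 16.9 CPM in controls and to 11.9, 13 and 13.6 CPM in the libraries labelled knockout. The lower group lay below the other without overlap (log2 difference -0.57 ± 0.11, edgeR adjusted p = 0.0021). Nsdhl (ENSMUSG00000031349, chromosome X, 72918557 to 72958514, plus strand) was at 48.6, 55 and 52.3 CPM against 37.2, 34.8 and 35.1 CPM, a difference of -0.54 ± 0.1. Msmo1 stood at 240 ± 7.79 against 189 ± 10.8 CPM and Lss at 63.4 ± 1.91 against 49.1 ± 1.06 CPM, differences of -0.35 and -0.37. Ebp, Hsd17b7, Fdft1, Tm7sf2 and Cyp51 were lower by differences from -0.69 (Tm7sf2) to -0.25 (Cyp51). Sqle (-0.22 ± 0.08, edgeR adjusted p = 0.092) and Sc5d (-0.2 ± 0.08, adjusted p = 0.0908) did not pass the threshold. Ctsb, which overlaps Fdft1, differed by 0.2 and was not called.

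None of the 4 regulators was called by edgeR, also at an unadjusted p under 0.05, nor by DESeq2. Srebf2 was at 55.8, 49.6 and 51.4 CPM in stimulated controls and at 51, 50.6 and 47.5 CPM in libraries labelled knockout, which overlapped (log2 difference -0.07 ± 0.09). Scap, Insig1 and Insig2 differed by -0.09 ± 0.16, -0.22 ± 0.12 and -0.11 ± 0.08. Of the 5 uptake and trafficking genes, Stard4 was lower, at 15, 17.3 and 13.6 CPM against 12.2, 10.7 and 9.93 CPM (-0.48 ± 0.11, edgeR adjusted p = 0.009). Npc1 was at 106, 86.1 and 101 CPM against 117, 124 and 122 CPM, and Soat1 at 297, 266 and 283 CPM against 323, 311 and 324 CPM. In both genes the libraries labelled knockout all lay higher, and neither difference (0.31 ± 0.17 and 0.18 ± 0.09) passed the threshold. Lrp1 differed by -0.03 ± 0.13.

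**Figure D3:**
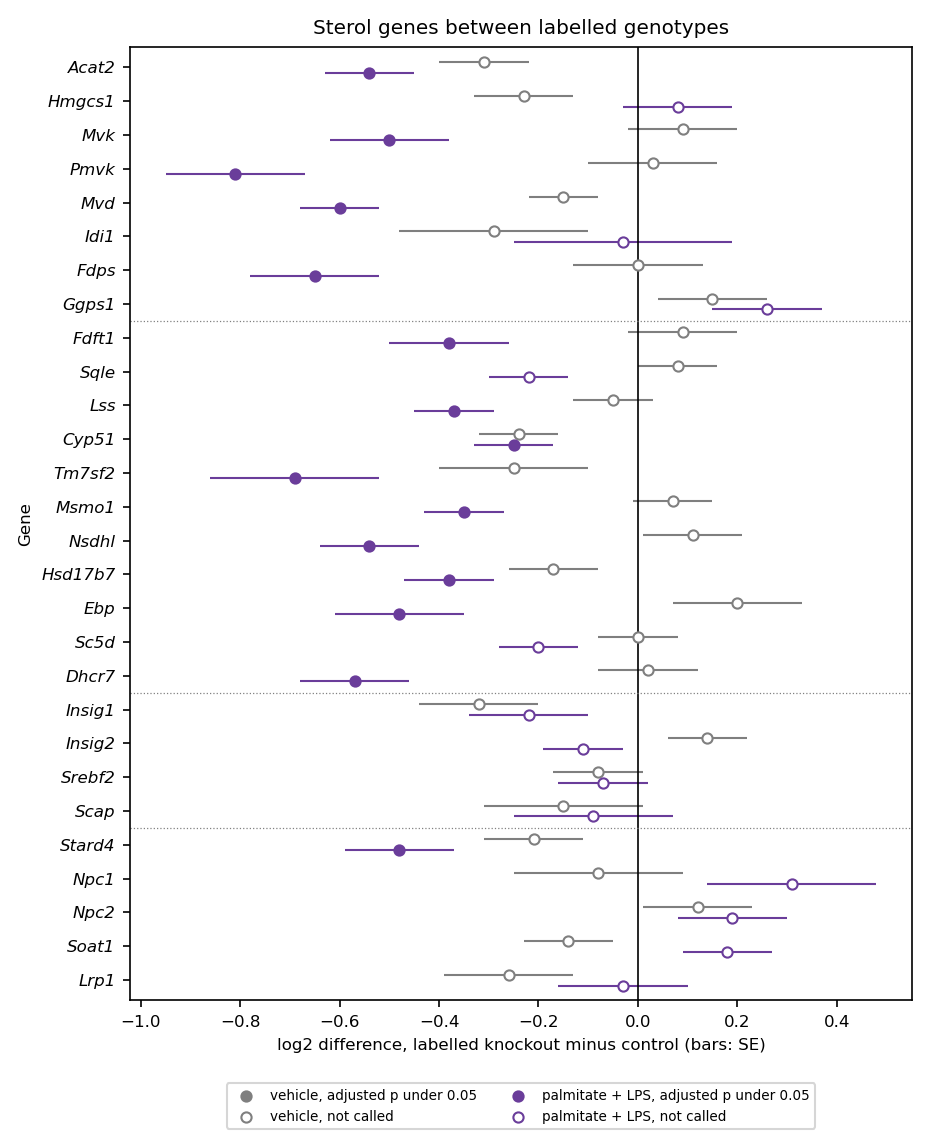
Log2 difference between libraries labelled knockout and controls for each gene in vehicle (grey) and in palmitate plus LPS (purple), with standard errors as bars and filled points for an edgeR adjusted p under 0.05. No vehicle point is filled, and the 15 filled purple points are 14 enzymes of the arms and Stard4, all left of 0.

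Leaving out vehicle replicate 1 labelled knockout changed this comparison through the shared estimate of the spread: 18 members were then lower and 4 higher, beside 13.9% and 17.1% of all tested genes. The added lower genes were Sqle, Sc5d and Insig1, and the higher ones were Ggps1, Npc1, Npc2 and Soat1, with adjusted p from 0.00085 (Npc1) to 0.0334 (Ggps1). The 9 calls of Acat2, Dhcr7, Fdps, Lss, Msmo1, Mvd, Mvk, Nsdhl and Pmvk held whichever 1 of the 12 libraries was left out, and 10 to 22 members were called over these fits. For the other omissions no share of all tested genes is given, so nothing particular to the members is read from this range. Those of Hsd17b7 and Stard4 were each lost in 2 of the 12, of Tm7sf2 in 3, of Ebp in 4, of Fdft1 in 5 and of Cyp51 in 8. Marker sums of some other cells were higher in libraries labelled knockout, after stimulation and also in vehicle. Fibroblast and mesothelial markers summed to 144 to 167 CPM in stimulated controls and 199 to 348 CPM in libraries labelled knockout. Of these markers 6 of 10 were higher, beside 10% of all tested genes. In vehicle they summed to 117 to 137 and 150 to 195 CPM, with 0 of 10 called. Neutrophil markers summed to 123 to 135 and 154 to 192 CPM after stimulation, with 2 of 5 tested higher and 1 lower. In vehicle they summed to 88.3 to 90.9 and 117 to 120 CPM, with 2 of 5 tested higher and 1 lower, beside 2.11% and 1.69% of all tested genes. There Mmp8 was at means of 16.4 CPM in controls and 43.7 CPM in libraries labelled knockout, and Mmp9 at 10.5 and 5.88 CPM. Most of the stimulated sum was Csf3r (means 90.6 and 136 CPM), while S100a8 was at 15 and 6.93 CPM. Ly6g was at 0 in every library and S100a9 at 0 to 2 counts. The part of these cells in the result was not tested. In bulk RNA, fewer cells of a type and less RNA per cell cannot be told apart.

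The third comparison asks how the libraries labelled knockout responded to stimulation and whether that response differed from the controls'. In them 13 of the 19 enzymes fell and Ggps1 rose, and 8 enzymes had a lower response than in controls by the test of the difference. Over the 28 genes 3 rose (Ggps1, Insig1 and Npc2), 16 fell and 9 were not called (edgeR adjusted p under 0.05), a share of 67.9%. Among all tested genes 33.7% rose and 35.6% fell, 69.4% in all. The median log2 change was -0.42, against -0.06 over all tested genes. Dhcr7 went from 113, 108 and 96 CPM to 11.9, 13 and 13.6 CPM, an 8.24-fold fall without overlap (log2 change -3.04 ± 0.11, edgeR adjusted p = 5.52e-13). Soat1 went from 963, 1291 and 1199 CPM to 323, 311 and 324 CPM, with its lowest vehicle value in replicate 1 (-1.85 ± 0.1, and -1.97 without that replicate). Among the other enzymes that fell, Mvk, Tm7sf2, Sc5d, Sqle, Lss, Hmgcs1 and Acat2 had log2 changes of -1.35, -1.11, -0.75, -0.74, -0.43, -0.42 and -0.35. All 19 calls held whichever library was left out. Npc1 and Idi1 were also called lower without replicate 1 labelled knockout (-0.59 and -0.49, against -0.35 and -0.32), and without replicate 3 Fdps was called lower (-0.37) and Scap higher (0.55). Scaled by library totals, the median of all genes moved by -0.37 and 2 members were higher (Ggps1 and Npc2) and 23 lower, beside 20.7% of all tested genes higher and 50.9% lower.

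The test of the difference between the responses called 8 of 28 genes, all with a lower response in the libraries labelled knockout, beside 3.35% of tested genes lower and 8.05% in either direction. They were Mvk, Pmvk, Mvd and Fdps of the mevalonate arm and Msmo1, Nsdhl, Ebp and Dhcr7 of the sterol arm. For Pmvk the log2 change was 0.08 in controls and -0.76 in libraries labelled knockout, a difference of -0.84 ± 0.19 (edgeR adjusted p = 0.017). Nsdhl changed by -0.13 and -0.78, a difference of -0.65 ± 0.14 (adjusted p = 0.0128), and Mvd by -0.06 and -0.5. Fdps rose in controls (0.39) and changed by -0.25 ± 0.13 in libraries labelled knockout, which was not called. Ebp had its highest vehicle value, 131 CPM, in replicate 1 labelled knockout against 91 and 90.3 CPM, and its difference was -0.68 ± 0.18 with that library and -0.49 without it. No regulator or trafficking gene was called (edgeR), 2 of these 9 passed an unadjusted p under 0.05, and Soat1, Npc1 and Lrp1 had differences of 0.32 ± 0.13, 0.38 ± 0.24 and 0.23 ± 0.18. Without vehicle replicate 1 labelled knockout 10 genes were called, all lower, with Lss and Sqle added, beside 5.59% of tested genes lower. The call of Nsdhl alone held under every one of the 12 omissions. The count fell to 1 without control vehicle replicate 1 or 2 or stimulated control replicate 2, to 2 without stimulated replicate 2 labelled knockout, and to 3 without stimulated control replicate 3 or stimulated replicate 1 or 3 labelled knockout. The share of all tested genes called in these fits is not given here.

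**Figure D4:**
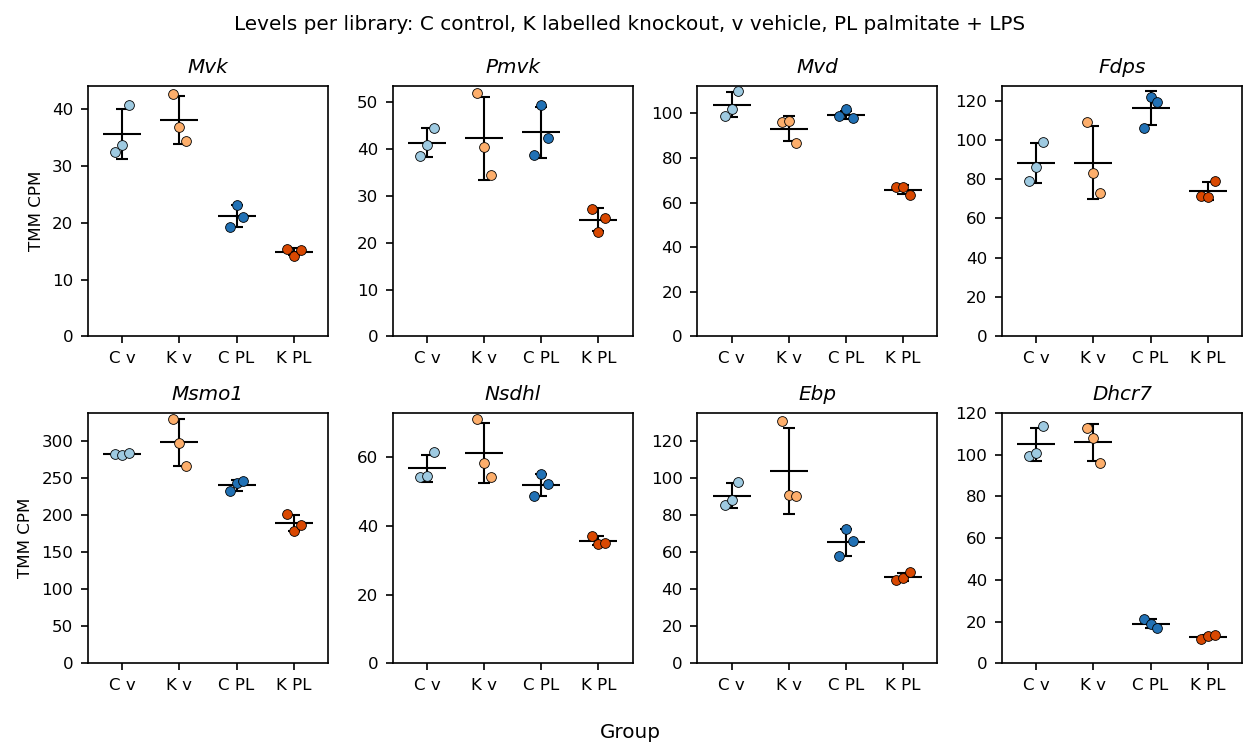
Normalised CPM in every library of the 8 genes whose response differed between genotypes, with the group mean and SD (n = 3) in black and each axis starting at 0. In every panel the stimulated libraries labelled knockout (K PL) have the lowest mean and overlap no stimulated control library (C PL), while the vehicle groups (C v and K v) overlap except for Mvd.

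The last comparison asks how the genotypes differed in vehicle. No member passed the threshold in edgeR or DESeq2, beside 3.8% of all tested genes in edgeR (2.11% higher and 1.69% lower). At an unadjusted p under 0.05, 4 were lower and 0 higher, with no share of all tested genes to set beside them. The members' log2 differences lay between -0.32 and 0.2, with a median of -0.06 against 0.01 over all tested genes. In 6 members the libraries labelled knockout all lay lower and in 1 all lay higher, against 9.27% and 10.5% of tested genes. Acat2 was at 38.9, 40.8 and 44.5 CPM in controls and at 33.5, 36.3 and 30 CPM in libraries labelled knockout, which did not overlap (-0.31 ± 0.09, edgeR adjusted p = 0.0778). Cyp51 was at 155, 153 and 157 CPM against 129, 140 and 126 CPM (-0.24 ± 0.08, adjusted p = 0.114). Both were called lower without replicate 1 labelled knockout (adjusted p = 0.0212 and 0.0465), when 2.72% of tested genes were lower. That library was the lowest of its group for Npc1 (98.4 CPM against 178 and 186), Lrp1 (261 against 390 and 403) and Insig1 (62.4 against 90.5 and 84.5), and the highest for Npc2 (2993 against 2228 and 2227).

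Genes around the pathway were read from 6 companion lists, whose counts stand beside 10% of all tested genes higher and 6.1% lower in this comparison of stimulated libraries. The lists are short, and nothing particular to any of them is read from its count. In stimulated libraries 2 of 9 other sterol enzymes and partners were lower in those labelled knockout and 0 were higher, namely Cyb5a, the cytochrome b5 that passes electrons to sterol desaturation and demethylation (-0.83 ± 0.13, edgeR adjusted p = 0.000553), and Tmem97, a regulator of Npc1 (-0.47 ± 0.12). Among isoprenoid and prenylation genes 2 of 14 were higher and 0 lower, and among SREBP processing and enzyme degradation genes 2 of 12 were higher and 0 lower. One of the latter was Rnf139, a ubiquitin ligase of the endoplasmic reticulum that takes part in sterol-regulated degradation, at 59.6, 56.2 and 56.2 CPM against 41.3, 40.4 and 39.1 CPM (0.51 ± 0.09, adjusted p = 0.00114). Of 8 lipoprotein uptake genes 1 was higher and 2 were lower, the latter being Scarb1, the HDL receptor (-0.62 ± 0.09), and Lrp8, an apolipoprotein E receptor (-1.22 ± 0.24). Lrp8 had few counts, 44 to 50 per library in stimulated controls and 11 to 28 in those labelled knockout. Of 17 sterol transport and ester genes 4 were higher and 4 lower, among them Nceh1, a hydrolase of cholesterol esters (0.36), Stard3, a late endosomal sterol transporter (0.38), and the caveolar protein gene Cav1 (-0.51). Of 8 oxysterol and efflux genes 1 was higher, Cyp27a1, the sterol 27-hydroxylase (0.63 ± 0.16), and 1 lower, the efflux transporter gene Abcg1 (-0.57 ± 0.12). At an unadjusted p under 0.05 the lists with 0 lower had 1 lower each, and the list with 0 higher had 0 higher. Over the 12 omissions of a library the call of Cyp27a1 was lost in 3, of Tmem97 in 5, of the higher isoprenoid and prenylation genes Pdss1 and Pggt1b in 5 each, of Sorl1, the higher uptake gene, in 4, and of Erlin2, the other higher gene of SREBP processing, in 8. Without stimulated control replicate 1, both calls of the isoprenoid and prenylation list were lost (edgeR adjusted p = 0.0736 and 0.0501). Scaled by library totals, Pggt1b, Sorl1 and Erlin2 did not pass the threshold (adjusted p = 0.0843, 0.0626 and 0.166). In vehicle, Cyp27a1 and Cav1 differed in the opposite direction, Cyp27a1 lower (-0.56 ± 0.12, adjusted p = 0.0111, and 0.066 without control vehicle replicate 2) and Cav1 higher (0.96 ± 0.11, adjusted p = 5.66e-05).

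Stimulation also moved some of these genes, Ch25h further than any member. Ch25h, which makes 25-hydroxycholesterol, an oxysterol that binds INSIG proteins, rose from 0.373, 0.153 and 0.354 CPM (4 to 10 counts) to 25.8, 36.6 and 29.1 CPM in controls, and from 0.524, 0.239 and 0.371 CPM to 43, 34.9 and 43 CPM in libraries labelled knockout. The log2 changes were 6.69 ± 0.24 and 6.76 ± 0.23, and the stimulated genotypes differed by 0.4 ± 0.14 (edgeR adjusted p = 0.0627), which passed the threshold without vehicle replicate 1 labelled knockout or stimulated control replicate 2 (adjusted p = 0.0099 and 0.0267). Rnf139 rose by 1.84 in controls and 2.11 in libraries labelled knockout. Abca1, an efflux transporter, rose by 0.87 and 0.45, the latter being 0.08 and not called when scaled by library totals (edgeR adjusted p = 0.594), whereas Abcg1 fell by 0.82 and 0.53. Nceh1 fell by 2.33 and 1.96, and Lipa, the lysosomal lipase that releases cholesterol from lipoprotein esters, by 1.67 in both. Stard3 rose by 1.73 and 2.22. Srebf1, the sister gene of Srebf2, was not called in any comparison fitted to all 12 libraries. In vehicle, the libraries labelled knockout had less Nr1h3, which encodes the oxysterol receptor LXR alpha (84.6, 82.7 and 98.3 CPM against 48.3, 37.5 and 36.5 CPM, log2 difference -1.12 ± 0.12, edgeR adjusted p = 2.12e-05), and less Abcg1 (-0.86 ± 0.12, adjusted p = 0.000406). The groups did not overlap in either gene. Abca1 was not called there (adjusted p = 0.0552), but was higher without replicate 1 labelled knockout (0.44, adjusted p = 0.00263).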

How the data were processed

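Gene expression was read from 12 tables, 1 per library, of 41388 Ensembl genes. Tools named in the submitters' processing notes are STAR 2.0.4b, featureCounts 1.45 of Subread and bcl2fastq 2.0, with the build GRCm38, and the labels' protocols name a SMARTer v1 kit. The strand setting of the counting is not given in the sources used here. The authors deposited raw whole-number counts per gene. Their deposited CPM was recomputed, to rounding error, from the count and the library total, and the authors' RPKM from that CPM and the exon length, and neither entered a test. Symbols came from a table of gene names for 40254 IDs.

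Counts were fitted in edgeR 4.0.16 (R 4.3.3) with its quasi-likelihood test, TMM scaling, filterByExpr and 1 mean per group over all 12 libraries. Benjamini-Hochberg adjustment covered all 12914 genes tested, at least 99.92% of each library's counts, with a threshold of 0.05. A standard error is the absolute log2 change divided by the square root of the F statistic. Printed levels are TMM-normalised CPM. Counts at an unadjusted p have no share of all tested genes beside them, and nothing particular to the members or lists is read from them. The rule allows all 28 members to be named in every comparison, and those not named are given by counts and ranges. Of each companion list up to 4 genes with the smallest p among those called are named, with Pparg, Ch25h, Srebf1, Abca1 and Abcg1 whatever their p, and fewer are named than the rule allows. The members, lists and rule were chosen with earlier results of these data known, so the lower level of synthesis genes in stimulated libraries labelled knockout is not independent evidence. DESeq2 1.42.0, other scalings, no filter, a replicate block, fits of only the groups compared, and the omission of each library were alternatives. The tests were tried first on simulated counts with known changes.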

Additional observations from a re-analysis of the deposited data

Results flagged for a closer look

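For 8 members the response to palmitate plus LPS differed between the genotypes by the test of the difference itself (log2 response in libraries labelled knockout minus that in controls, edgeR interaction term). The differences were -0.84 for Pmvk, -0.68 for Ebp, -0.65 for Fdps, -0.65 for Nsdhl, -0.59 for Mvk, -0.59 for Dhcr7, -0.44 for Mvd and -0.42 for Msmo1, with adjusted p from 0.0128 (Nsdhl) to 0.0381 (Fdps). Without vehicle replicate 1 labelled knockout the same 8 were called, and their values moved most for Ebp, to -0.49. The calls other than that of Nsdhl were lost without control vehicle replicate 1 or 2 or without stimulated control replicate 2, each of which left 1 call.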

How the results depend on the processing

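For 155 results (genes printed in a comparison, and members called in it under at least 1 setting, not every member in every comparison), settings other than the omission of a library kept the direction and the side of the threshold in 847 values, weakened 23, strengthened 34 and reversed 11. With DESeq2's size factors and with DESeq2 itself the member counts were 0, 15, 20 and 19, and 8 or 9 for the interaction. In vehicle, 1 member was called when scaled by library totals (Acat2) and 1 without a filter (Insig1), against 0. With the replicate number as a block the interaction kept 2 calls of 8, and the genotype difference after stimulation 13 of 15. Same-numbered libraries did not deviate together (correlations -0.309 to 0.067, 0 of 18 over 0.1), so the numbers are not treated as pairs. Fitted to the groups compared alone, 22 members were called after stimulation, 18 lower and 4 higher. The share of all tested genes called in that fit is not given here, so this count is not read as a stronger result. The interaction has no such fit, since it uses all groups. Omitting 1 library at a time gave 0 to 2 calls in vehicle, 10 to 22 after stimulation, 17 to 20 in the response of controls, 19 to 21 in that of libraries labelled knockout and 1 to 10 for the interaction. The member counts of this paragraph have no share of all tested genes beside them, and nothing particular to the members is read from them.

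Among these 155 results the following signs turned, and members not among them also turned in vehicle and in the interaction. Scaled by library totals, the genotype difference after stimulation was -0.01 for Hmgcs1, the response in controls was -0.1 for Insig2, -0.26 for Pmvk, -0.07 for Scap, -0.12 for Srebf1 and -0.25 for Srebf2, and in libraries labelled knockout -0.05 for Scap, -0.11 for Srebf1 and -0.28 for Srebf2 (edgeR adjusted p = 0.0363). Insig2 in libraries labelled knockout was at 0 with DESeq2's size factors and with DESeq2. Over omissions of a library, the genotype difference after stimulation ranged from -0.09 to 0 for Abca1, -0.1 to 0.04 for Idi1, -0.08 to 0 for Lrp1 and -0.19 to 0.02 for Scap, and Pmvk from -0.02 to 0.17 in the response of controls. In the response of libraries labelled knockout Cyp51 ranged from -0.1 to 0.01, Fdft1 from -0.21 to 0, Insig2 from -0.06 to 0.03 and Srebf2 from 0 to 0.17. Library totals shift all genes in the responses, as given above, and the cause of the other turns was not tested. With 3 libraries a group, the smallest called difference between genotypes among the members was -0.25 (Cyp51).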
